A study of Rattus norvegicus with 6 samples.

Results

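The genes described here are 35 genes of glycolysis and of the response to low oxygen, taken by their symbols from a table of 34257 genes, in which every symbol was found once. They were read in 3 groups: 17 genes of glucose uptake and glycolysis, 5 isoforms of that pathway that are enriched in muscle, and 13 other targets of the transcription factor HIF1. Ventricular cardiomyocytes of newborn rats were cultured with perhexiline, an antianginal drug known to block carnitine palmitoyltransferase 1 and thereby the entry of long-chain fatty acids into mitochondria, at 1 µM for 24 h, or with a vehicle of a composition not given in the sources used here. Poly(A) RNA was sequenced in 3 libraries per group, with replicates not traced to cultures or animals in the labels. The p-values therefore speak of the scatter among these 6 libraries alone, which may be technical. Values are FPKM, fragments per kilobase of gene length scaled by a total for each library, and the libraries held 13616252 to 16702523 fragments.

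Glycolysis splits glucose to pyruvate in the cytosol, and lactate dehydrogenase can turn the pyruvate to lactate. Several of its steps are carried out by isoenzymes from separate genes, of which some are found in most cells and others mainly in striated muscle. The heart around birth draws much of its energy from glucose and lactate and later turns to fatty acids. HIF1 is a dimer of an oxygen-sensitive alpha subunit and ARNT: prolyl hydroxylases of the EGLN family mark the alpha subunit for destruction through VHL when oxygen is present, and in low oxygen the dimer binds a short core sequence and raises transcription of glycolytic enzymes, of the growth factor VEGFA and of other targets.

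Promoter windows of the 5 members that passed the test below are shown because they hold or lack the core sequence of HIF binding, ACGTG or GCGTG. Each window runs from 250 bases before to 50 bases after the gene start, 5′ to 3′ on the gene's strand, from RefSeq on the build GRCr8, and capitals mark core matches on either strand (CACGT and CACGC are the opposite-strand forms). The windows are chr5:138002272-138002571 (plus strand) for Slc2a1, chr10:63715294-63715593 (plus) for Aldoc, chr7:131113849-131114148 (plus) for Pfkm, chr14:84897825-84898124 (minus) for Pgam2 and chr10:55868936-55869235 (plus) for Eno3.
Slc2a1: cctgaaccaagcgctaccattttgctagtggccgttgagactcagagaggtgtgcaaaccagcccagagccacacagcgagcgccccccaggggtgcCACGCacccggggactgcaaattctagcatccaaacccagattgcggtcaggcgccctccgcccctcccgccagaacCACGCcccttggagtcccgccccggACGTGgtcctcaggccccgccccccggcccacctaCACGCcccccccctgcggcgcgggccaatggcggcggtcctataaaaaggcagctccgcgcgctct
Aldoc: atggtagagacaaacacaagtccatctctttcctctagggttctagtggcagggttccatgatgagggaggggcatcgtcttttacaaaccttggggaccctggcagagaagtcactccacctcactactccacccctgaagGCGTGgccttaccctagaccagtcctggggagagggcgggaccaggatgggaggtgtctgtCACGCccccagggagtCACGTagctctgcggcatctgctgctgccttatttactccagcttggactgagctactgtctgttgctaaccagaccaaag
Pfkm: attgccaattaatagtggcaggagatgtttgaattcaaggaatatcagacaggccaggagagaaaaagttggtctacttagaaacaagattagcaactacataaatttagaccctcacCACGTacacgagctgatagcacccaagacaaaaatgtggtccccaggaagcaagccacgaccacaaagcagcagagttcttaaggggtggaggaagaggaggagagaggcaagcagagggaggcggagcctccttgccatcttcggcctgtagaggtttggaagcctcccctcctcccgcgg
Pgam2: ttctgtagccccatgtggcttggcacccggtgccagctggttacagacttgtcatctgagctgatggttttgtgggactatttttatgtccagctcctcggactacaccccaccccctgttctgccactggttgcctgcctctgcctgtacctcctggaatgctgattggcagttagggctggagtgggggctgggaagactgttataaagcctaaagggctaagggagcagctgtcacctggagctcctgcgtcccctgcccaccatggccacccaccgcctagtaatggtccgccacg
Eno3: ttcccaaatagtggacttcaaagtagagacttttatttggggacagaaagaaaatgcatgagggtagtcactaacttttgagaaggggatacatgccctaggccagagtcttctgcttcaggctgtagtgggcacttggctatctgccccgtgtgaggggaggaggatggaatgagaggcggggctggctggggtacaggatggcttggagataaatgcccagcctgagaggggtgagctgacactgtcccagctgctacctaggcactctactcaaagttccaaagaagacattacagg

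The Slc2a1 window held 4 matches, starting 153, 76, 51 and 16 bases before the gene start, and the Aldoc window held 3, starting 108, 47 and 31 bases before it. Slc2a1 was the member that rose and Aldoc was among those that fell, and a relation of matches to direction was not tested. The Pfkm window held 1 match, 132 bases before the start, and the windows of Pgam2 and Eno3 held none. RefSeq windows were matched for 31 of the 35 members, and Pgk1, Slc2a4, Ndrg1 and Ero1a had none. Of the 37 windows of these members, 21 (56.8%) held a match, overlapping matches counted once, against 41.6% of all 33469 windows. By group, 13 of 20 windows of glycolytic genes, 1 of 4 of muscle isoforms and 7 of 13 of other HIF1 targets held one. Both core sequences contain CG, and the members' windows had a median of 19.0 CG pairs against 7.0 over all windows. A match is a description of letters and does not show binding.

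The common enzymes of glycolysis (Hk1, Gpi, Aldoa, Gapdh, Pgk1, Pgam1, Eno1, Pkm and Ldha) stood at 0.916 to 1.04 of their vehicle mean with perhexiline, and none passed the test. The muscle isoforms of 3 steps fell to about 0.73 to 0.74 of theirs, and the glucose transporter Slc2a1 rose 1.26-fold. Of the 35 members 33 reached 1 FPKM in at least 3 libraries and were tested. Slc2a1 was higher and Aldoc, Pfkm, Pgam2 and Eno3 were lower at a limma adjusted p under 0.05. The test called 6.66% of all 13460 genes tested, with 3.55% higher and 3.11% lower. A single rise among 33 members lies near the background, while with the 4 falls 15.2% of the tested members were called. In 16 of the 33 no perhexiline library lay within the vehicle range or the reverse, against 31.9% of all genes tested. By group these were 10 of 16 glycolytic genes, 3 of 5 muscle isoforms and 3 of 12 other HIF1 targets. Pgk1, Eno1 and Adm, given below by mean and SD, were among them. The median log2 difference was -0.05 over the 33 members and 0.01 over all genes, and the median absolute difference was 0.12 in each. All 5 calls were lost when replicate 1 or 2 of vehicle or replicate 2 or 3 of perhexiline was left out, where the adjusted p of these genes was 0.0633 to 0.134. They were also lost with no filter on low values (adjusted p of 0.0558 to 0.0961). Calls over all genes dropped in each of these fits too, for example from 896 to 162 with no filter on low values.

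**Figure D1:**
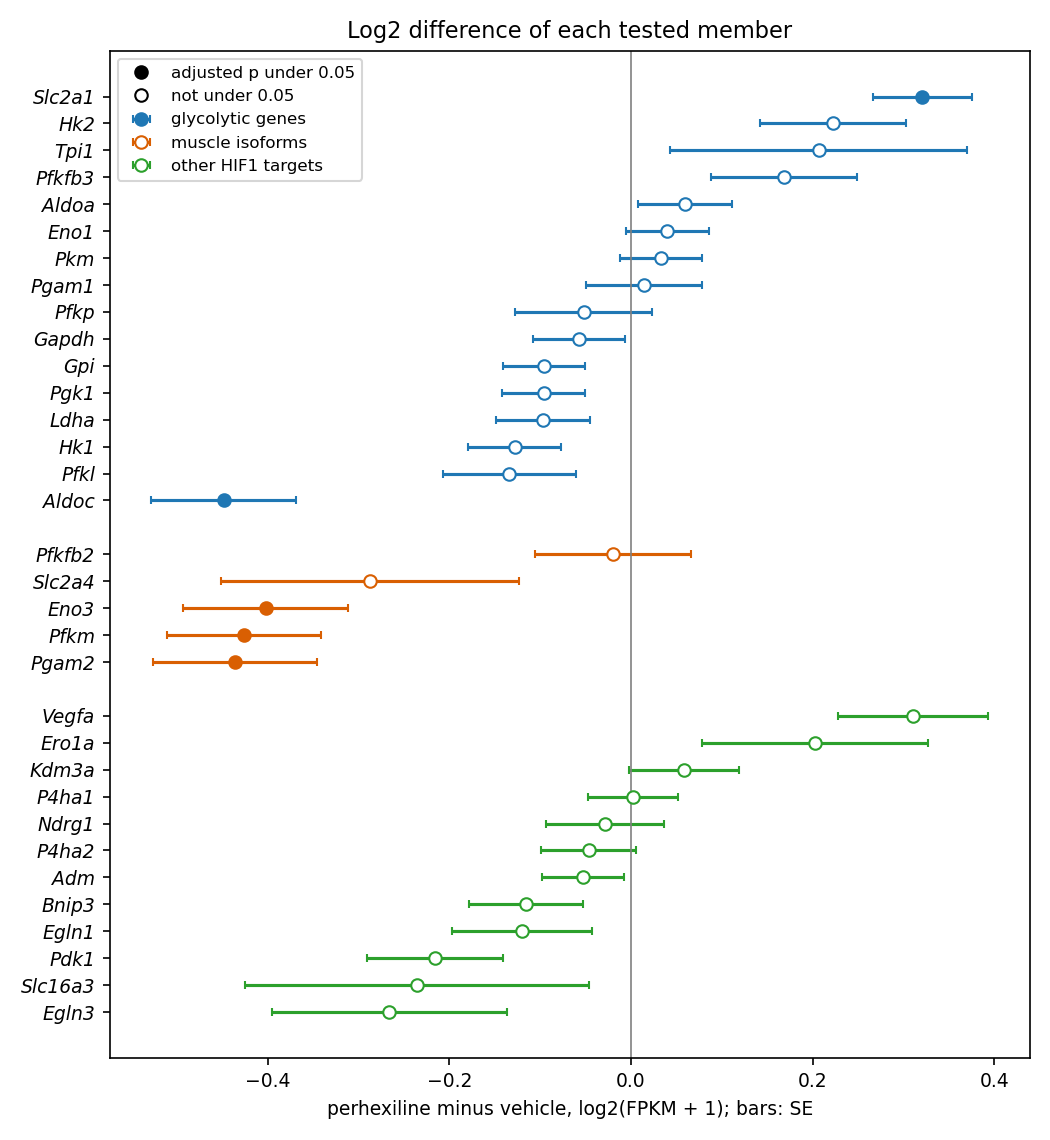
Log2 difference (perhexiline minus vehicle, on the log2(FPKM + 1) scale) of the 33 tested members with its SE, in 3 coloured groups, with filled symbols for an adjusted p under 0.05. Slc2a1 lies at 0.32, Aldoc and the muscle isoforms Pfkm, Pgam2 and Eno3 between -0.45 and -0.40, and most other members within 0.15 of 0.

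Glucose enters these cells through GLUT1, encoded by Slc2a1 and present in most cells, and through GLUT4, encoded by Slc2a4, which insulin moves to the surface of muscle and fat cells. Slc2a1 (chromosome 5, 138154673 to 138182897, plus strand, in the deposited table, on a build not given in the sources used here) stood at 53.5, 52.5 and 53.5 FPKM in the vehicle libraries and at 64.5, 71.6 and 64.2 FPKM in the perhexiline libraries. Every perhexiline library lay above every vehicle library, and the log2 difference was 0.32 ± 0.055 (SE; adjusted p = 0.024). Slc2a4 stood at 16.0, 16.4 and 10.8 FPKM with vehicle and 12.8, 9.81 and 11.9 FPKM with perhexiline. The third vehicle library lay within the perhexiline range, the groups overlapped, and the log2 difference of -0.29 did not pass (adjusted p = 0.31). The share of Slc2a4 in the summed FPKM of the pair was 21.2% ± 3.89 (SD, n = 3) with vehicle and 14.7% ± 2.39 with perhexiline. The shares did not overlap (two-sided exact permutation p = 0.1, the smallest that 3 against 3 libraries allow). The margin was narrow, with vehicle replicate 3 at 16.7% and perhexiline replicate 1 at 16.6%. The summed level of both transporters was 67.6 ± 2.90 and 78.3 ± 2.79 FPKM (exact p = 0.1).

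Hexokinase traps glucose as its phosphate. Hk1, the form bound to mitochondria in most cells, stood at 227, 224 and 226 FPKM with vehicle and 195, 208 and 217 FPKM with perhexiline. Its libraries did not overlap, but the log2 difference of -0.13 ± 0.051 (SE) had an adjusted p of 0.172. Hk2, the inducible form of heart and skeletal muscle and a HIF1 target, stood at 27.0, 26.2 and 22.0 FPKM with vehicle and 28.8, 30.5 and 28.7 FPKM with perhexiline, also without overlap (log2 difference 0.22 ± 0.081, adjusted p = 0.138). Since the difference was of opposite sign in these genes, the share of Hk2 in the pair was 10.002% ± 0.959 with vehicle and 12.5% ± 0.685 with perhexiline (exact p = 0.1). Gpi, which turns glucose phosphate to fructose phosphate, stood at 279 to 298 FPKM with vehicle and 266 to 275 FPKM with perhexiline (adjusted p = 0.234).

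Phosphofructokinase commits the sugar to glycolysis, and its muscle subunit fell while the others did not pass. Pfkm, the muscle subunit (chromosome 7, 139685573 to 139722132, plus strand), stood at 82.8, 84.9 and 71.6 FPKM with vehicle and 62.2, 53.4 and 61.6 FPKM with perhexiline. The groups did not overlap, and the log2 difference was -0.43 ± 0.085 (adjusted p = 0.0337). The liver subunit Pfkl stood at 25.7 ± 0.905 and 23.4 ± 2.20 FPKM (adjusted p = 0.291) and the platelet subunit Pfkp at 111 ± 11.6 and 107 ± 0.851 FPKM (adjusted p = 0.704). Pfkp was the most abundant of the 3 in every library, and Pfkm made up 36.8% ± 0.723 of their summed FPKM with vehicle and 31.2% ± 1.59 with perhexiline (exact p = 0.1). The summed level of the family was 217 ± 19.0 and 189 ± 7.13 FPKM (exact p = 0.2), with vehicle replicate 3 within the perhexiline range.

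The PFKFB enzymes make and break fructose 2,6-bisphosphate, which activates phosphofructokinase. They were rare here, and none passed. Pfkfb3, the inducible form with strong kinase activity, stood at 6.16, 6.21 and 7.26 FPKM with vehicle and 7.52, 7.38 and 7.49 FPKM with perhexiline (log2 difference 0.17, adjusted p = 0.234). Pfkfb2, the heart form, stood at 5.47 ± 0.206 and 5.39 ± 0.503 FPKM (adjusted p = 0.91). Pfkfb4 was not tested, with 0.71 to 0.958 FPKM against 0.964 to 1.02 FPKM, or 20 to 36 fragments per library, without overlap. A row annotated with the same protein, LOC100911725, stood at 1.598 FPKM in vehicle replicate 2 and near 0 elsewhere. With it added Pfkfb4 was at 0.71, 2.56 and 0.768 FPKM with vehicle and 1.02, 1.07 and 0.98 FPKM with perhexiline, the groups overlapped, and the vehicle mean was the higher.

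The aldolases, which cut the sugar into a pair of triose phosphates, were led by Aldoa, the form of muscle and most cells. Aldoa stood at 1286 ± 35.6 FPKM with vehicle and 1339.5 ± 26.2 FPKM with perhexiline, with a log2 difference of 0.06 and a 95% interval of -0.06 to 0.18. Aldoc, the form best known from brain (chromosome 10, 65586504 to 65590126, plus strand), stood at 25.8, 29.1 and 24.6 FPKM with vehicle and 20.6, 18.9 and 17.9 FPKM with perhexiline. All perhexiline libraries were lower than all vehicle libraries, and the log2 difference was -0.45 ± 0.080 (adjusted p = 0.0258). Aldoc was 2.02% ± 0.221 of aldolase FPKM with vehicle and 1.41% ± 0.110 with perhexiline (exact p = 0.1), so the summed aldolase level, 1312 ± 33.7 and 1359 ± 25.9 FPKM, followed Aldoa.

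**Figure D2:**
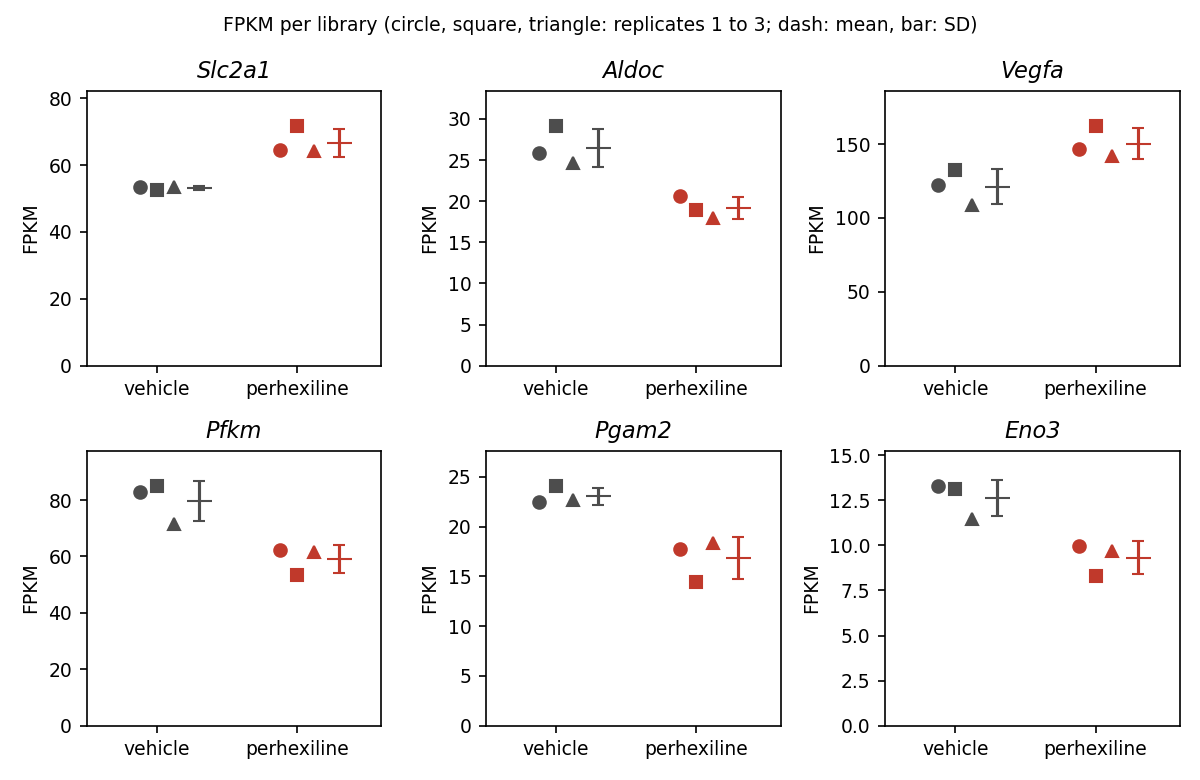
FPKM in each library (circle, square and triangle for replicates 1 to 3, with the mean and SD beside them) of the 5 members that passed and of Vegfa, on axes from 0. In each of the 6 genes the 3 perhexiline libraries lie wholly above or wholly below the 3 vehicle libraries, higher for Slc2a1 and Vegfa and lower for Aldoc, Pfkm, Pgam2 and Eno3.

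The steps from triose phosphate to 3-phosphoglycerate were read from Tpi1, Gapdh and Pgk1, and none of them passed. Gapdh, which oxidizes the triose, stood at 1328, 1295 and 1285 FPKM with vehicle and 1257, 1282 and 1217 FPKM with perhexiline (log2 difference -0.06, 95% interval -0.18 to 0.06, adjusted p = 0.521). Its libraries did not overlap, by a margin of less than the SD of either group. The phosphoglycerate kinase Pgk1, which makes ATP, stood at 331 ± 3.64 and 309.9 ± 11.0 FPKM (adjusted p = 0.235).

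Tpi1, the triose isomerase, could not be read from its own row. It stood at 10.3, 8.74 and 5.94 FPKM with vehicle and 10.002, 9.30 and 9.33 FPKM with perhexiline, far under the enzymes on either side of it. The table also holds LOC100911515, described there as triosephosphate isomerase-like, at 28.7, 29.5 and 67.4 FPKM with vehicle and 34.5, 49.95 and 22.0 FPKM with perhexiline. The library with the lowest Tpi1 value, vehicle replicate 3, had the highest value of this copy. With the 3 rows annotated with the same protein added, Tpi1 came to 51.8 ± 21.0 and 45.7 ± 14.1 FPKM, and its log2 difference went from 0.21 (adjusted p = 0.466) to -0.15 (adjusted p = 0.779). The level and direction of Tpi1 are uncertain, with the division of reads between copies not given in the sources used here. Rows of Gapdh copies also held reads: 54 further rows carried its protein's name, 5 of them with a mean of at least 1 FPKM, and together they reached 49.1% of the vehicle level of Gapdh. Most of this lay in AABR07070043.1 and LOC108351137, at 316 and 308 FPKM with vehicle. Whether these are reads of the copies or of Gapdh itself cannot be told apart. The same share was 15.2% for Bnip3, 7.29% for Ldha, 5.75% for Pkm and 4.56% for Eno1, and 65.6% for the rare Pfkfb4. With copies added, Gapdh, Bnip3, Ldha, Pkm and Eno1 did not pass, and their log2 differences kept their sign.

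**Figure D3:**
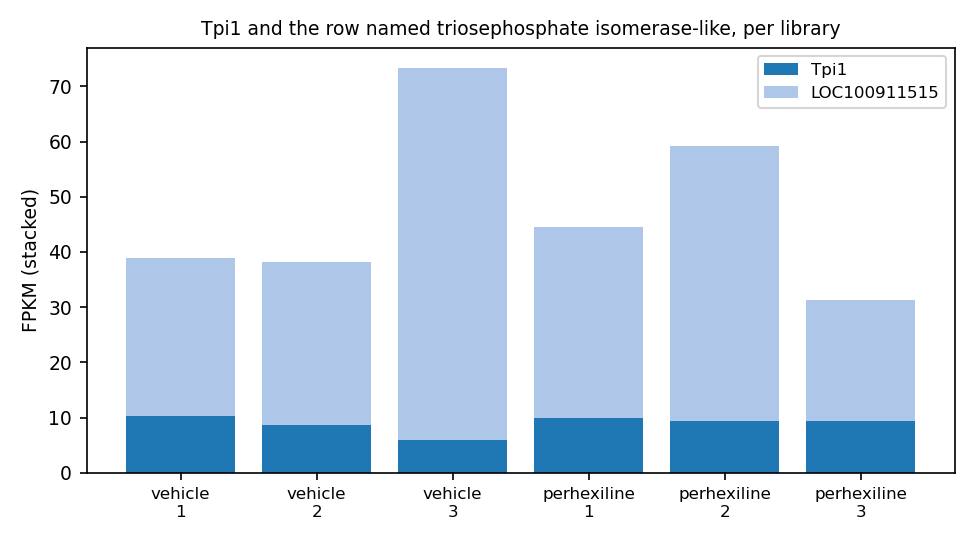
Stacked FPKM of Tpi1 (dark) and of LOC100911515, the row named triosephosphate isomerase-like (light), in each of the 6 libraries. The copy holds most of the sum in every library and varies from 22.0 to 67.4 FPKM, while Tpi1 lies between 5.94 and 10.3 FPKM.

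Phosphoglycerate mutase and enolase each have a common and a muscle form, and in each pair the muscle form fell. Pgam1, the common mutase, stood at 417 ± 17.8 and 421 ± 29.8 FPKM (log2 difference 0.01, 95% interval -0.14 to 0.16). Pgam2, the muscle mutase (chromosome 14, 86044969 to 86047162, minus strand), stood at 22.4, 24.0 and 22.7 FPKM with vehicle and 17.8, 14.5 and 18.3 FPKM with perhexiline, and its log2 difference was -0.44 ± 0.090 (adjusted p = 0.0363). Its 3 perhexiline libraries were the lower ones without exception. Eno1, the common enolase, stood at 749 ± 9.79 and 770.0 ± 10.9 FPKM (log2 difference 0.04, 95% interval -0.07 to 0.15). Eno3, the muscle enolase (chromosome 10, 57278307 to 57283653, plus strand), stood at 13.3, 13.1 and 11.5 FPKM with vehicle and 9.99, 8.29 and 9.67 FPKM with perhexiline (log2 difference -0.40 ± 0.091, adjusted p = 0.0433). The groups did not overlap for Eno3, with perhexiline replicate 2 lowest. Eno3 also lost its call without perhexiline replicate 1 (adjusted p = 0.0512), and Pgam2 without vehicle replicate 3 (adjusted p = 0.0572).

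In these cultures the muscle forms were the minor part of both pairs. Pgam2 was 5.25% ± 0.374 of mutase FPKM with vehicle and 3.88% ± 0.697 with perhexiline, and Eno3 was 1.66% ± 0.128 and 1.20% ± 0.131 of the FPKM of Eno1 and Eno3 (exact p = 0.1 for each share). The sums of both forms were 439.6 ± 17.2 and 438 ± 27.7 FPKM for mutase (exact p = 0.9) and 761 ± 10.1 and 779 ± 10.02 FPKM for enolase (exact p = 0.2).

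**Figure D4:**
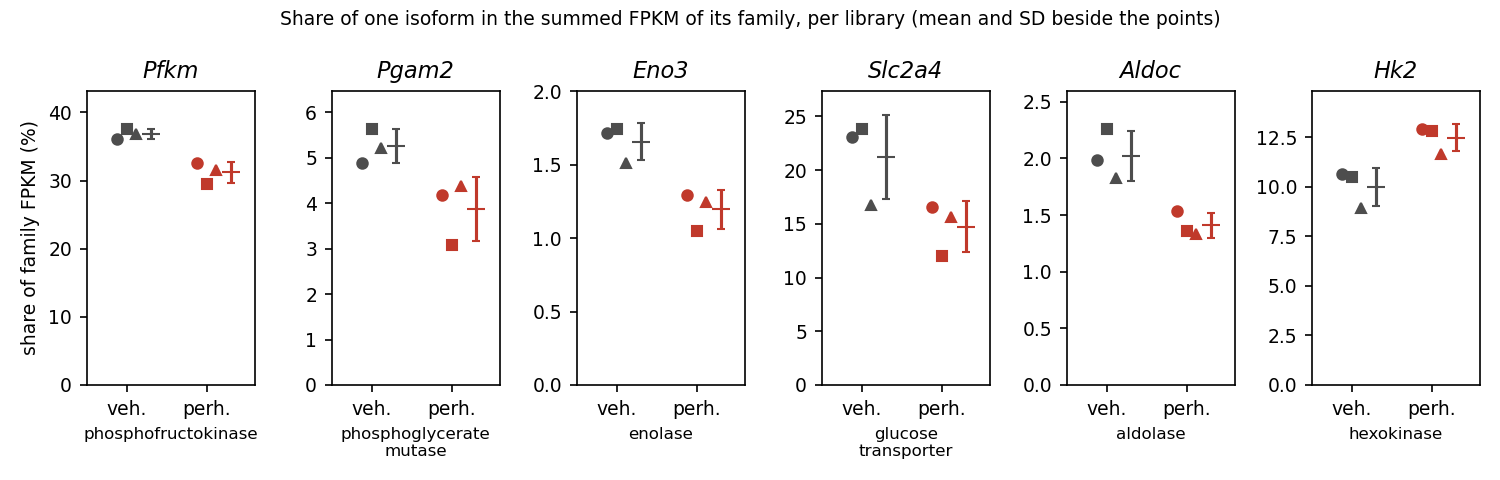
Share of 1 isoform in the summed FPKM of its family in percent, per library, for Pfkm, Pgam2, Eno3, Slc2a4, Aldoc and Hk2, with the mean and SD beside the points and axes from 0. The perhexiline libraries lie below the vehicle libraries for the first 5 (by a narrow margin for Slc2a4) and above them for Hk2.

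Pyruvate kinase and lactate dehydrogenase close the pathway. Pkm stood at 410 ± 11.1 and 419 ± 5.92 FPKM (log2 difference 0.03, 95% interval -0.07 to 0.14), and the table does not separate its splice forms M1 and M2. Ldha, whose subunit favours lactate formation, stood at 1010, 988 and 946 FPKM with vehicle and 905, 942 and 905 FPKM with perhexiline. The libraries did not overlap, by a narrow margin, and the log2 difference of -0.10 did not pass (adjusted p = 0.278). Summed over the 17 members from hexokinase to lactate dehydrogenase, the level stood at 6302 ± 63.3 FPKM with vehicle and at 6179 ± 106.6 FPKM with perhexiline, 0.98 of the vehicle mean (exact p = 0.3). Ldhb, the heart subunit of lactate dehydrogenase and no member, was at 664 and 551 FPKM (log2 difference -0.27, adjusted p = 0.0553). With Ldhb added the sum stood at 6966 ± 86.4 FPKM with vehicle and at 6730.03 ± 91.3 FPKM with perhexiline, and the groups no longer overlapped (exact p = 0.1). Both sums rest on the deposited scaling, and neither was recomputed with another. With total-fragment scaling the median log2 difference of all genes was 0.06 instead of 0.01, so the direction of these small differences is uncertain. Of the 16 tested glycolytic genes 1 rose, 1 fell and 14 did not pass, near the 3.55% and 3.11% of all genes called higher and lower, with a median log2 difference of -0.02.

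By level the members formed a steep order. Aldoa and Gapdh stood at the top with group means of 1252 to 1339.5 FPKM, ranked 20 and 21 among all genes tested. Their order was not stable across libraries, since Gapdh was the higher in vehicle replicates 1 and 2. The rows of Gapdh and its copies summed to 1942 FPKM with vehicle, with the origin of the reads in the copies not known. Ldha and Eno1 came next, and Pgam1 and Pkm, at 417 and 410 FPKM with vehicle, did not differ beyond their SDs. At the other end were the regulators Pfkfb2, Pfkfb3 and Pfkfb4 and the HIF1 target Ankrd37.

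The muscle isoforms differed among themselves as well. Pfkm, Pgam2 and Eno3 fell and Slc2a4 and Pfkfb2 did not pass, so 3 of 5 were called lower beside 3.11% of all genes, with a group median of -0.40. Markers of cardiomyocytes moved with them in the same libraries. Of 14 cardiomyocyte markers 5 fell and none rose: Ckm, the muscle creatine kinase, Actn2 of the Z-disc, the troponin Tnni3, the myosin heavy chain Myh6 and the light chain Myl2. Their log2 differences lay between -0.51 and -0.37, and the median of all 14 was -0.37. That median was not particular to cardiomyocyte markers: it was -0.37 for smooth muscle and pericyte and -0.38 for macrophage and leukocyte markers. It was 0.01 for fibroblast, 0.10 for endothelial and 0.52 for erythroid markers. With limma-voom 8 cardiomyocyte and 4 macrophage and leukocyte markers were lower and none higher. The summed level of the cardiomyocyte list was 21119.6 to 26356 FPKM with vehicle and 18829 to 21897 FPKM with perhexiline, ranges that overlapped, with none of the 14 at 0. Fewer cardiomyocytes and less of these RNAs per cardiomyocyte cannot be told apart in such bulk samples. The part of the marker change in the fall of the muscle isoforms was not tested.

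**Figure D5:**
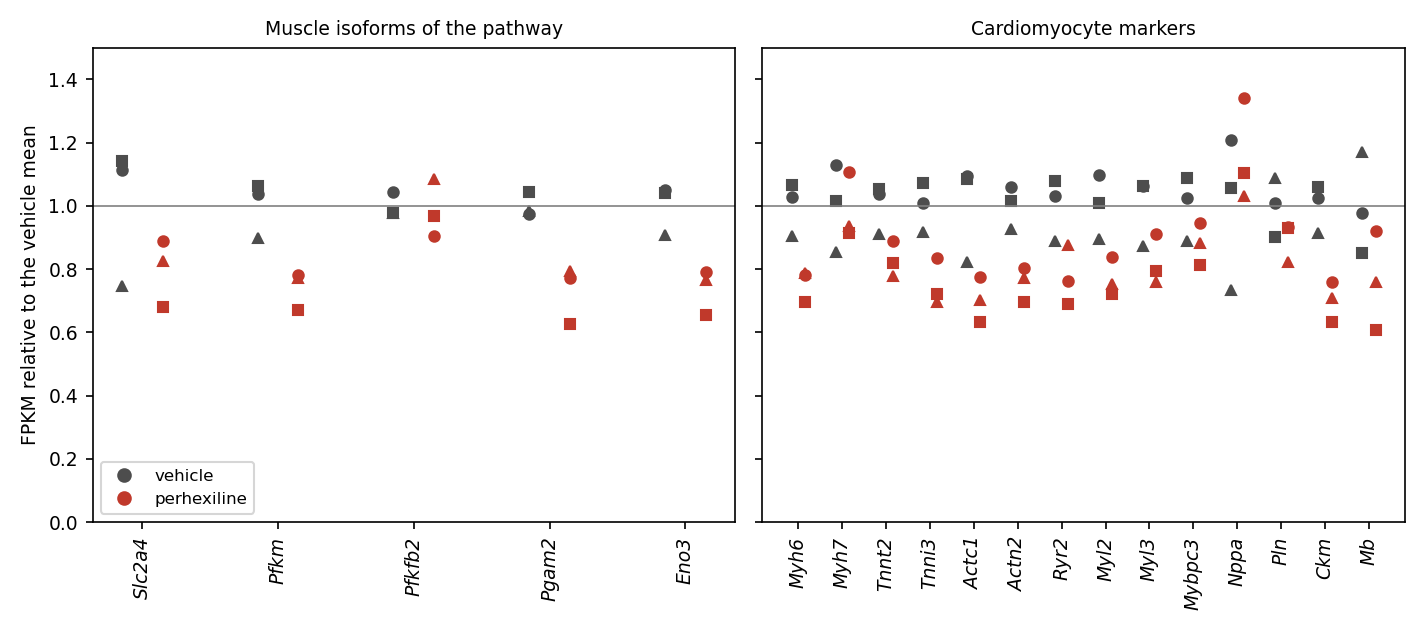
FPKM of each library divided by the vehicle mean of the gene, for the 5 muscle isoforms (left) and 14 cardiomyocyte markers (right), with vehicle in grey, perhexiline in red and symbols for replicates 1 to 3. The perhexiline points of Pfkm, Pgam2 and Eno3 and of the 5 markers that fell lie under 0.9, and Pfkfb2, Myh7 and Nppa lie around or above 1.

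Vehicle replicate 3 was the lowest vehicle library for 4 of the 5 muscle isoforms and for 16 of all 35 members, and perhexiline replicate 2 was the lowest of its group for 4 of the 5. Markers of other cells were present in every library. Summed fibroblast markers were 1080.0 to 1118 FPKM with vehicle and 1041 to 1092 with perhexiline (2 of 10 higher, 2 lower), and smooth muscle and pericyte markers, which include Des of cardiomyocytes, were 1286 to 1779 and 1157 to 1389 FPKM (none of 9 tested passed, 6 had an unadjusted p under 0.05, and limma-voom called 4 lower). Macrophage and leukocyte markers were 95.8 to 100.1 and 52.6 to 80.5 FPKM (2 of 9 lower), endothelial markers 17.7 to 21.0 and 19.2 to 20.4 FPKM with Cldn5 at 0 throughout and none of 5 tested past an unadjusted p of 0.05 or called by limma-voom, and erythroid genes 5.34 to 9.58 and 11.6 to 12.6 FPKM (1 of 3 higher). Their part in the members' values was not tested.

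None of the 12 tested HIF1 targets outside glycolysis passed, 2 of them had an unadjusted p under 0.05, and limma-voom called 1. Vegfa, the endothelial growth factor, came nearest. It stood at 122, 132 and 109 FPKM with vehicle and 147, 162 and 142 FPKM with perhexiline, and all perhexiline libraries were the higher ones (log2 difference 0.31 ± 0.082, adjusted p = 0.0651). Vegfa passed when genes under a mean of 5 FPKM were left out (adjusted p = 0.0463), with total-fragment scaling (0.0357) and with limma-voom on recovered fragments (0.0253). Pdk1, a kinase that shuts pyruvate out of the citric acid cycle, stood at 16.8, 19.3 and 16.0 FPKM with vehicle and 15.001, 14.8 and 14.5 FPKM with perhexiline. Its libraries did not overlap and were lower with the drug (log2 difference -0.22 ± 0.075, adjusted p = 0.125). Slc16a3, the lactate exporter MCT4, stood at 16.5, 15.9 and 9.97 FPKM with vehicle and 13.3, 9.70 and 11.95 FPKM with perhexiline (adjusted p = 0.472). Vehicle replicate 3 sat near the bottom of the perhexiline range.

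The oxygen sensors themselves are HIF1 targets. Egln3 stood at 84.8, 81.4 and 58.9 FPKM with vehicle and 64.4, 58.8 and 61.4 FPKM with perhexiline, so again vehicle replicate 3 lay among the perhexiline libraries (log2 difference -0.27, adjusted p = 0.242). Without that library Egln3 passed as lower (log2 difference -0.43, adjusted p = 0.0221). Egln1, the main sensor in most cells, stood at 60.4 ± 1.75 and 55.7 ± 6.01 FPKM (adjusted p = 0.366).

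The remaining targets showed small differences or few reads. The vasodilator peptide gene Adm stood at 30.2 ± 0.468 and 29.1 ± 0.216 FPKM, and the mitophagy receptor Bnip3 at 32.9 ± 0.512 and 30.4 ± 2.26 FPKM. The collagen prolyl hydroxylases P4ha1 and P4ha2 stood at 47.9 ± 1.96 and 48.0 ± 1.11 FPKM and at 28.3 ± 1.32 and 27.3 ± 0.279 FPKM. The histone demethylase Kdm3a stood at 12.3 ± 0.621 and 12.8 ± 0.149 FPKM and the stress gene Ndrg1 at 10.4 ± 0.237 and 10.2 ± 0.541 FPKM. These 6 genes had log2 differences between -0.12 and 0.06 and none passed, with adjusted p of 0.288 or more. Ero1a, the oxidase of the endoplasmic reticulum, stood at 28.0, 25.2 and 29.0 FPKM with vehicle and 26.7, 38.4 and 30.9 FPKM with perhexiline, with 1 high library in the perhexiline group (adjusted p = 0.347). Ankrd37 was not tested: it stood at 0.167, 0.30 and 0.492 FPKM with vehicle and 0.928, 0.657 and 0.987 FPKM with perhexiline. The perhexiline libraries were all the higher ones, on 2 to 15 fragments per library, and with no filter on low values its log2 difference was 0.50 (adjusted p = 0.115).

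The regulators of HIF were read from a list without members. Of 15 tested, Cited2 rose and none fell, and limma-voom called 3 higher. The 1 call of 15 is 6.67%, the same share as the 6.66% of all genes called. Cited2, which competes with HIF1 for its coactivators and is itself a HIF1 target, stood at 62.4, 60.9 and 72.5 FPKM with vehicle and 91.7, 116 and 99.97 FPKM with perhexiline (log2 difference 0.64 ± 0.1, adjusted p = 0.0203). Every perhexiline library was above every vehicle library. Hif1a, the oxygen-sensitive subunit, stood at 34.7, 32.2 and 34.8 FPKM with vehicle and 38.1, 43.3 and 40.2 FPKM with perhexiline, and Vhl at 9.87, 10.7 and 11.7 and 13.6, 13.1 and 13.2 FPKM. Neither overlapped between groups, with adjusted p of 0.0569 for Hif1a and 0.0605 for Vhl. Epas1, the second alpha subunit, had a log2 difference of 0.00 (adjusted p = 0.99), Arnt of 0.14 (0.278), the asparagine hydroxylase Hif1an of -0.05 (0.786) and Egln2 of 0.09 (0.327). Protein and oxygen were not measured in these libraries.

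Other HIF1 targets, again without members, had 6 rises and 1 fall among 52 tested, against 3.55% of all genes called higher and 3.11% lower, with a median log2 difference of 0.07. The list was chosen with earlier results of these data known, so its share of calls is a description only. Angptl4, an inhibitor of lipoprotein lipase, stood at 3.12, 3.67 and 4.92 FPKM with vehicle and 19.1, 14.7 and 15.2 FPKM with perhexiline, 4.18-fold. Ddit4, an inhibitor of mTORC1, was 1.96-fold higher, the metallothionein Mt1 2.94-fold and Ppp1r3c, a glycogen-targeting subunit of protein phosphatase, 1.56-fold. The other rises, named after their values were seen, were those of Bhlhe40 and Hmox1. The fall was that of Cav1, the caveolae coat gene, at 0.706 of its vehicle mean. Many of these genes also answer to other signals than HIF1.

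The other genes of glucose, glycogen and pyruvate metabolism moved only downward among those that passed. Of 41 tested 8 fell, against 3.11% of all genes, and none rose, and the median log2 difference was -0.14, against 0.01 over all genes. This list too was chosen with earlier results known, so its share of calls is a description only. The cardiomyocyte markers moved the same way (5 of 14 lower, median -0.37, summed level 21119.6 to 26356 and 18829 to 21897 FPKM). Smooth muscle and pericyte markers had a median of -0.37 and macrophage and leukocyte markers of -0.38. The part of any of these markers' changes in the falls was not tested. The lactate and pyruvate carrier Slc16a1, or MCT1, stood at 146, 138 and 128 FPKM with vehicle and 109.6, 105.6 and 113 FPKM with perhexiline. The glycogen genes Pygm (muscle phosphorylase) and Gyg1 (glycogenin) were at 0.844 and 0.784 of their vehicle means. The glycogen genes Gys1, Gbe1, Pygb, Pygl and Ugp2 did not pass (adjusted p of 0.0616 to 0.537), and Gbe1 had a log2 difference of 0.19. A further 4 that fell were named after their values were seen. They were Mpc2 of the pyruvate carrier and Dlat, Pdha1 and Pdhx of pyruvate dehydrogenase, at 0.824, 0.819, 0.801 and 0.782 of the vehicle mean. The other listed genes of that carrier and complex did not pass, with adjusted p of 0.22 for Mpc1, 0.0532 for Pdhb and 0.0502 for Dld. Nor did the kinases and phosphatases of the complex, Pdk2, Pdk3, Pdk4, Pdp1 and Pdp2, with adjusted p of 0.0716 to 0.831. Counted over the 3 lists together, 7 of 105 tested genes rose and 9 fell. These 16 calls became 3 when replicate 1 or 2 of vehicle or replicate 2 or 3 of perhexiline was left out, and all of those 3 were rises. With limma-voom 14 of the 41 genes fell and none rose.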

How the data were processed

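Poly(A) RNA of 6 libraries, 3 vehicle and 3 perhexiline, placed by their titles, was sequenced as dUTP-marked pairs, per the labels' protocols. The deposited values are FPKM per gene and library, per the file headers. The submitters' processing notes name HISAT2 2.0.5 and DESeq2 with no role. With build, annotation and counter not given in the sources used here, reads shared by paralogs, pseudogenes or antisense genes cannot be told apart. FPKM times the deposited gene length gave whole multiples of 1 step per library (100.0% within 0.01), taken as fragments. They gave the depth, and 1 fragment per kilobase was worth 0.0574 to 0.0727 FPKM. The total behind the deposited scaling was not the fragment count. In vehicle replicate 1 it was 13757577 for 13866500 fragments, and in perhexiline replicate 3 it was 17433823 for 16702523. It lay above the fragments in all perhexiline libraries and in vehicle replicates 2 (15289338 for 15241994) and 3 (13982527 for 13616252). The excess, which lowers FPKM relative to depth, was larger in each perhexiline library than in any vehicle library.

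The 13460 genes that reached 1 FPKM in at least 3 libraries entered limma 3.58.1 (R 4.3.3; mean-variance trend, two-sided, group as the only term) as log2(FPKM + 1). A call is a p under 0.05 after Benjamini-Hochberg adjustment over all of them, and the procedure was tested on simulated data. This scale understates changes of low genes. Folds are ratios of mean FPKM, ± is SD (n = 3) unless SE is named, and 95% intervals are limma's. Shares and sums were compared with two-sided exact permutation tests, unadjusted, 25 in all. The members and lists were chosen with earlier results of these data known, so their shares beside those of all genes are descriptions and no independent test. Of 228 list entries 219 were in the table. All members were named, and from other lists up to 4 called genes per direction with the smallest adjusted p, and fixed HIF regulators. Values of 1 gene that this rule names are not reported here. Alternatives were other pseudocounts, filters and scalings, limma-voom, the replicate number as a block and each library left out. Summing copies and adding Ldhb to the enzyme sum were chosen after seeing the data.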

Additional observations from a re-analysis of the deposited data

How the results depend on the processing

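With all 6 libraries 896 genes, 1 higher and 4 lower members and 16 other pathway genes passed. Without 1 library each, these counts ranged from 87 to 841 genes, 0 to 1 higher members, 0 to 4 lower members and 3 to 22 other genes. With no filter on low values they were 162, 0, 0 and 4. With limma-voom on recovered fragments 1562 genes, 2 higher members and 28 other genes passed. A mean FPKM of at least 5 and total-fragment scaling each gave 2 higher members, Vegfa being the second. Under total-fragment scaling 815 of the called genes were higher and 337 lower (70.7% higher, against 53.3%), and the median log2 difference of all genes was 0.06. Replicate numbers did not pair the libraries (correlations of deviations -0.02, -0.10 and -0.04), and with the replicate block 173 genes, 0 higher members, 0 lower members and 4 other genes passed (adjusted p of 0.0587 to 0.0916 for the 5 members). No member that passed reversed in any of these fits.

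Members that did not pass and had the opposite sign were Pfkp (0.0039), Pfkfb2 (0.028), Adm (0.0012), Ndrg1 (0.023) and P4ha2 (0.0079) under total-fragment scaling, P4ha1 (-0.0032) under upper-quartile scaling and Tpi1 (-0.15) with copies summed. Without 1 library, values ranged from -0.14 to 0.011 for Pfkp, -0.080 to 0.031 for Pfkfb2, -0.043 to 0.050 for Pgam1, -0.027 to 0.031 for P4ha1 and -0.065 to 0.0052 for Ndrg1, and the change in the share of Pfkl from -0.029 to 0.86 percentage points. Counted in fragments rather than FPKM, the share of Hk2 was higher by 4.001 instead of 2.45 points. A share of fragments weights each gene by its length, 5432 bases for Hk2 and 2682 bases for Hk1. For Pfkfb4 and Ankrd37 depth limits what can be read.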
